A study of Mus musculus with 11 samples.

Results

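The genes described here encode the oxygen-sensing core of the hypoxia-inducible factor (HIF) pathway: the alpha subunits Hif1a, Epas1 (HIF-2 alpha) and Hif3a, the partner subunit Arnt, the ubiquitin ligase component Vhl, the asparaginyl hydroxylase Hif1an, and the prolyl hydroxylases Egln1, Egln2 and Egln3. They were taken by gene symbol, as every probe set annotated with exactly 1 of these 9 symbols. All 9 genes were represented, by 27 of 45037 tested probe sets and 9 of 18193 named genes. RNA came from pooled mouse hearts at embryonic day 9.5, measured on 11 one-colour oligonucleotide arrays in 3 genotype groups. The conditional knockout (CKO) group was Gata4 flox/flox; Nkx2-5 cre/+ (n = 5 arrays), the double heterozygous group was Gata4 flox/+; Nkx2-5 cre/+ (n = 3), and the control group was Gata4 flox/+; Nkx2-5 +/+ (n = 3). GATA4 is a DNA-binding regulator of cardiac development, and NKX2-5 a homeobox protein of cardiac progenitors and muscle. Every group thus carried at least 1 floxed Gata4 allele, and both Cre groups also carried the Nkx2-5 cre allele, which the series description counts as a heterozygous Nkx2-5 mutation. Control hearts had no Cre, and Cre from Nkx2-5 acts only in cells that express that gene or descend from such cells. Whether replicates came from different pools or litters is not stated, and the p-values therefore reflect the spread among these arrays alone, which may be technical.

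In cells with enough oxygen, the EGLN enzymes hydroxylate prolines of the HIF alpha subunits, VHL binds the hydroxylated form, and the alpha subunit is degraded. HIF1AN, also called FIH, hydroxylates an asparagine and blocks binding of coactivators. When oxygen is low the alpha subunit persists, pairs with ARNT and activates genes, among which are Egln1 and Egln3 themselves, so that these enzymes form a feedback loop, whereas Egln2 is not known as a hypoxia-induced gene. Regulation of the alpha subunits is mostly at the level of the protein, which these arrays do not measure. HIF activity is known in the midgestation embryo, where the heart and its vessels form at low oxygen.

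The HIF heterodimer binds the core letters ACGTG or GCGTG, and the bases before the gene starts are shown because the genes with these sequences differed in what their transcripts did. RefSeq promoter entries (build GRCm38.p6) matched 8 of the 9 genes, with none for Epas1. Each stretch below holds the 250 bases before the annotated start, on the strand of the gene, with each ACGTG or GCGTG core on either strand in capitals. Egln3 lies at chr12:54203875-54204124 on the minus strand, Egln1 at chr8:124949255-124949504 on the minus strand, the upstream of 2 Egln2 entries at chr7:27166803-27167052 on the minus strand, and Hif1a at chr12:73907617-73907866 on the plus strand.
Egln3: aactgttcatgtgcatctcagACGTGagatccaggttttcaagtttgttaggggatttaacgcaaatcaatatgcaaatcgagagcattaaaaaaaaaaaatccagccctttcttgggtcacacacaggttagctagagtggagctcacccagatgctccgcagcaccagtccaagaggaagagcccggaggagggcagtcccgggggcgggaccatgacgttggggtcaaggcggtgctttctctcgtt
Egln1: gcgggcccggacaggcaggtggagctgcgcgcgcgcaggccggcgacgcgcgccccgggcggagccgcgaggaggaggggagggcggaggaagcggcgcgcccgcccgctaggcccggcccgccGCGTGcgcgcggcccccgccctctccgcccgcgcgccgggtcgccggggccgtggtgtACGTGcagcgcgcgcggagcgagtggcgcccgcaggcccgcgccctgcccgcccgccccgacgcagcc
Egln2: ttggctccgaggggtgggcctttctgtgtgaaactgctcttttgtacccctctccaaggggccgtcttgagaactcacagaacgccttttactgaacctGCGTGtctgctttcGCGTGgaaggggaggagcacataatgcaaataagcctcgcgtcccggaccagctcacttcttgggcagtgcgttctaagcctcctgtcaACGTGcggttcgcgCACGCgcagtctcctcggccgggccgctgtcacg
Hif1a: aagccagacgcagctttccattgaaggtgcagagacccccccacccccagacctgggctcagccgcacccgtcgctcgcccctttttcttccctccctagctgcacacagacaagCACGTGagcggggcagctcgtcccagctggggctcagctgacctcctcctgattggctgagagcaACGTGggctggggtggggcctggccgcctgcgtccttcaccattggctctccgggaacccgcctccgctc
Egln3 had 1 core, an ACGTG that begins 229 bases before the start. In Egln1 there were 2, a GCGTG at 126 and an ACGTG at 68 bases before the start. The Egln2 entry shown had 4, namely 3 GCGTG and 1 ACGTG, while the other Egln2 entry had 1, a GCGTG. In Hif1a there were 3 ACGTG matches, of which 2 overlap on opposite strands in the CACGTG at 135 bases before the start. Hif3a had 2 cores and Arnt 1, while Vhl and Hif1an had 0. Of 32851 promoter entries, 38.6% held at least 1 core in the same window (16.6% for ACGTG and 28.2% for GCGTG). A match of letters is a description of the sequence and does not show a binding site.

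Array values below are log2(intensity + 16) after quantile normalisation. The offset understates changes of dim probe sets. A gene was called when its adjusted p was under 0.05 in limma, with Benjamini-Hochberg adjustment over all 45037 probe sets, on its brightest probe set. The deposited intensities averaged 117.2 in CKO replicate 3, whereas the 10 remaining arrays averaged 166 to 176. CKO replicate 2 showed the widest 3' minus 5' gap of the beta-actin control probe sets, 1.001 on the log2 scale, while the remaining 10 lay at 0.29 to 0.45. On its brightest probe set Gata4 rose in CKO-labelled relative to control arrays (adjusted p of limma 0.0321; 9.43 ± 0.11 in CKO-labelled, 9.31 ± 0.097 in double heterozygous and 8.98 ± 0.19 in control arrays; SD, n = 5, 3 and 3). A second Gata4 probe set averaged 8.12 ± 0.97 in CKO-labelled, 8.44 ± 0.19 in double heterozygous and 8.03 ± 0.10 in control arrays, with no call. No source states whether either probe set lies in the deleted part, so they do not check the labels, and the arrays are called CKO-labelled. Nkx2-5 averaged 9.34 ± 0.34 in CKO-labelled, 9.48 ± 0.097 in double heterozygous and 9.87 ± 0.055 in control arrays, with no call against control arrays for CKO-labelled arrays (adjusted p of limma 0.0990) or double heterozygous arrays (0.9999). These are bulk samples, in which fewer cells of a type and less RNA per cell cannot be told apart.

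Between CKO-labelled and control arrays, the feedback hydroxylases differed from most other genes of the pathway in what was called. Egln3 and Egln1 rose, and of the HIF subunits only Epas1 did, while Hif1a, Hif3a, Arnt, Vhl, Hif1an and Egln2 were not called. Of the 9 genes 3 were called higher and 0 lower, where 1.2% of all 18193 genes were called higher and 0.863% lower. On the level of probe sets 5 of 27 were called, all of them higher, where 0.837% of all probe sets were. The arrays of the groups did not overlap for 5 of the 9 genes, against 12.1% of all genes. The median log2 fold change of the 9 genes was 0.31, beside -0.02 over all genes.

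Egln3, a prolyl hydroxylase known for its strong induction in low oxygen, had the largest rise of the 9 genes. Its brightest probe set read 7.49, 7.87, 7.30, 8.40 and 8.16 in CKO-labelled arrays 1 to 5, 6.28, 6.62 and 6.39 in double heterozygous arrays, and 6.12, 6.48 and 6.30 in control arrays. All 5 CKO-labelled arrays lay above all 6 others, and the double heterozygous and control arrays overlapped. The rise over control arrays was 2.91-fold (log2 fold change 1.54, SE 0.21, adjusted p = 0.00138). Against double heterozygous arrays it was 2.67-fold (log2 fold change 1.42, SE 0.21, adjusted p = 0.00770). A second Egln3 probe set, designed on the same annotated sequence, rose 3.68-fold over control arrays (adjusted p = 0.000386) and 3.52-fold over double heterozygous arrays (adjusted p = 0.00206). In deposited intensities the brightest probe set read 91.1 to 331 in CKO-labelled, 61.7 to 83.8 in double heterozygous and 50.4 to 77.4 in control arrays. Even the dim CKO replicate 3, at 91.1, was thus above the other groups without any normalisation.

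Egln1, the principal HIF prolyl hydroxylase in most tissues, rose less in fold. It read 9.95, 10.34, 10.01, 10.33 and 10.44 in CKO-labelled arrays, 9.40, 9.44 and 9.56 in double heterozygous arrays and 9.33, 9.59 and 9.47 in control arrays. The CKO-labelled arrays lay above all 6 others after normalisation. In deposited intensities CKO replicate 3 read 719, within the 686 to 742 of the double heterozygous and the 671 to 787 of the control arrays. The log2 fold change was 0.75 against control arrays (1.68-fold, SE 0.11, adjusted p = 0.00290) and 0.75 against double heterozygous arrays (1.68-fold, SE 0.11, adjusted p = 0.00770). Its other probe set, which comes from the same annotated sequence as the first, rose by 0.97 and 0.92 in the same comparisons (adjusted p = 0.00196 and 0.00770).

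Egln2, the hydroxylase outside the feedback loop, was not called. It read 8.29, 8.52, 8.54, 7.75 and 8.33 in CKO-labelled arrays, 8.13, 8.16 and 8.32 in double heterozygous arrays, and 8.25, 8.12 and 8.45 in control arrays. The groups overlapped throughout, and CKO replicate 4, which had the highest Egln3, had the lowest Egln2. The log2 fold change against control arrays was 0.01 (95% interval -0.31 to 0.34, adjusted p of limma 0.982), and its sign was negative under other scalings (-0.13 without normalisation, -0.14 after median centring). Its upper bound lies below the estimate of 0.75 for Egln1.

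**Figure D1:**
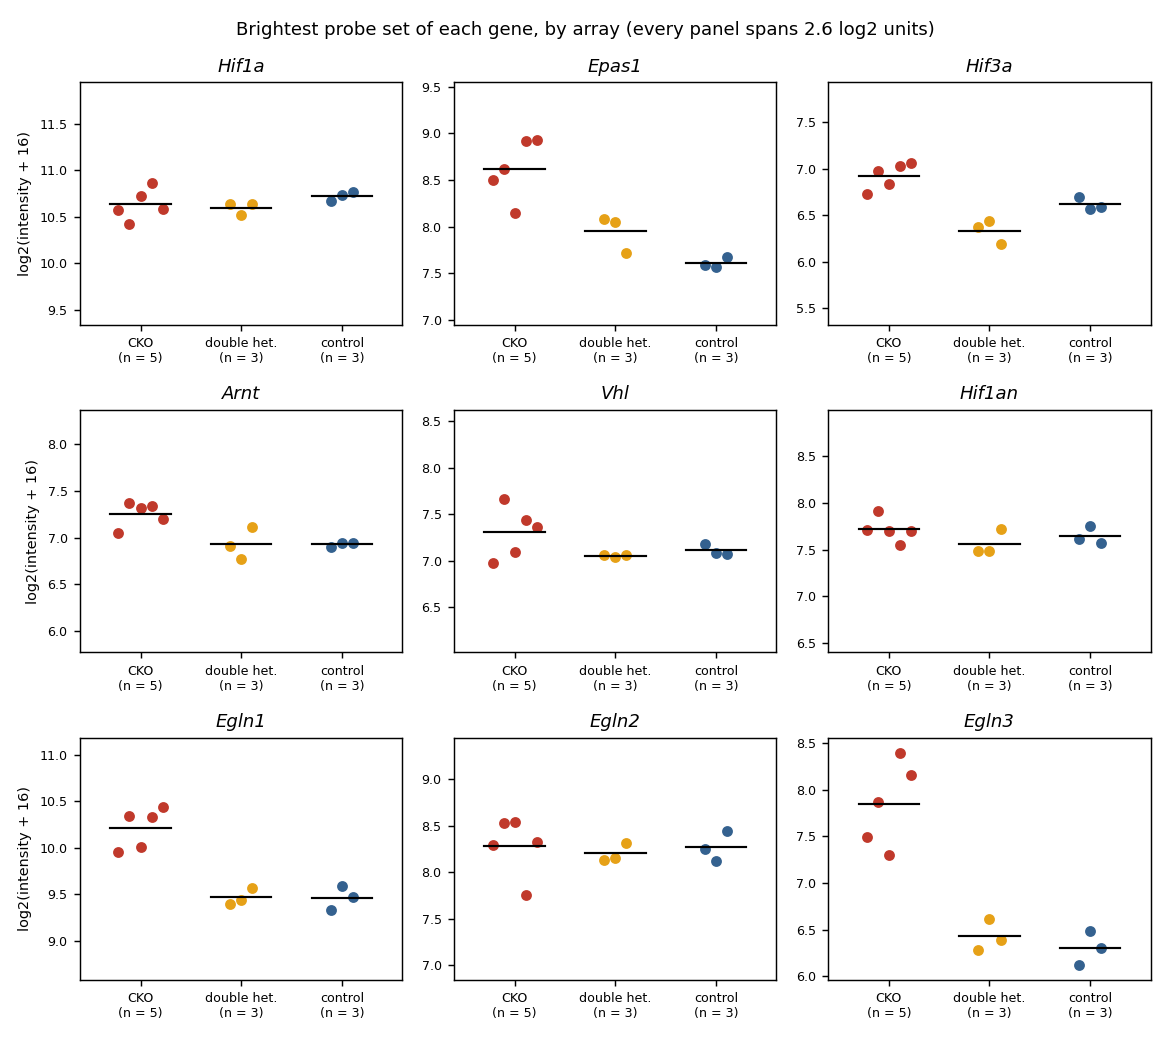
Log2(intensity + 16) of the brightest probe set of each of the 9 genes, 1 point per array, with a black line at the group mean, for CKO-labelled (n = 5), double heterozygous (n = 3) and control (n = 3) arrays. Egln1 and Egln3 are higher in all 5 CKO-labelled arrays than in all 6 others, Epas1 is highest in the CKO-labelled and lowest in the control arrays, and Hif1a, Hif1an and Egln2 overlap between CKO-labelled and control arrays.

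Hif1a, the broadly expressed alpha subunit, gave a strong signal (percentile 98.2 of all probe sets) and was not called. It read 10.58, 10.43, 10.72, 10.86 and 10.58 in CKO-labelled arrays, 10.63, 10.52 and 10.64 in double heterozygous arrays and 10.67, 10.74 and 10.76 in control arrays. CKO-labelled arrays lay on both sides of the control arrays, while all 3 double heterozygous arrays lay below them. The log2 fold change against control arrays was -0.09 (95% interval -0.27 to 0.09, adjusted p of limma 0.727). Against double heterozygous arrays it was 0.04 (95% interval -0.14 to 0.22), and in double heterozygous against control arrays -0.13 (95% interval -0.33 to 0.07).

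The other 3 Hif1a probe sets gave log2 fold changes of -0.17, -0.82 and 0.06 against control arrays, with 0 called. The value of -0.82 came with a wide spread, in that CKO replicate 2 read 6.01 and CKO replicate 5 read 7.38 on that probe set and the 3 remaining CKO-labelled arrays read 8.06 to 8.34. Double heterozygous arrays lay there between 8.17 and 8.37, and control arrays between 8.18 and 8.58. CKO replicate 2 is the array with the high beta-actin 3' minus 5' difference, whose part in this low value was not tested.

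Epas1, the alpha subunit best known from endothelium, was the 1 HIF subunit that was called. Its brightest probe set read 8.50, 8.62, 8.15, 8.92 and 8.93 in CKO-labelled arrays, 8.09, 8.05 and 7.72 in double heterozygous arrays, and 7.59, 7.57 and 7.68 in control arrays. After normalisation the 3 groups did not overlap, with double heterozygous arrays in between. Against control arrays the rise was 2.02-fold, or 1.01 on the log2 scale with an SE of 0.16 (adjusted p = 0.00401). The difference of 0.67 from double heterozygous arrays was not called (SE 0.16, adjusted p of limma 0.0905), nor was that of 0.34 between double heterozygous and control arrays (95% interval -0.03 to 0.71, adjusted p of limma 0.9999). The deposited Epas1 intensity in double heterozygous replicate 3 was 192, within the 182 to 201 of the control arrays. In CKO replicate 3 it was 180, below the control arrays. The place of either array above the control arrays thus rests on the normalisation. Without CKO replicate 3 the difference from double heterozygous arrays was 0.79 and was called (adjusted p of limma 0.0101). The dimmer Epas1 probe set, near the median brightness of the array, differed by 0.27 from control arrays (adjusted p of limma 0.567).

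Hif3a, an alpha subunit of which some splice forms inhibit HIF, had mostly dim probe sets, with the brightest at percentile 72.1. Of its 6 probe sets 2 had a mean above the median of all probe sets, and only the brightest is given by array. It read 6.73, 6.98, 6.83, 7.03 and 7.06 in CKO-labelled arrays, 6.37, 6.44 and 6.20 in double heterozygous arrays and 6.70, 6.57 and 6.58 in control arrays. After normalisation the CKO-labelled arrays lay above both other groups, and the double heterozygous arrays lay below the control arrays. The deposited intensity in CKO replicate 3 was 63.1, within the 57.6 to 70.8 of the double heterozygous arrays and below the 83.4 to 87.9 of the control arrays. The log2 fold change was 0.31 against control arrays (adjusted p of limma 0.273) and 0.59 against double heterozygous arrays (SE 0.12, adjusted p of limma 0.0525). The difference from double heterozygous arrays was called without CKO replicate 1 (0.64) or CKO replicate 3 (0.62). As the mean of the 6 probe sets the differences were -0.02 and -0.01, so the rise of the brightest probe set was not shared by the others, which lay between -0.35 and 0.11 against control arrays.

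Arnt, the constitutive partner, read 7.05, 7.37, 7.32, 7.34 and 7.20 in CKO-labelled arrays, 6.91, 6.77 and 7.12 in double heterozygous arrays and 6.90, 6.94 and 6.94 in control arrays. After normalisation all CKO-labelled arrays lay above the control arrays but not all above double heterozygous replicate 3. The deposited intensity in CKO replicate 3 was 92.6, below the 96.1 to 121 of the double heterozygous and the 106 to 116 of the control arrays. The log2 fold change of 0.33 against control arrays did not pass (unadjusted 95% interval 0.08 to 0.58, SE 0.12, adjusted p of limma 0.214). The 4 other Arnt probe sets ranged from -0.17 to 0.17. Vhl, the recognition subunit of the ligase that binds hydroxylated HIF alpha, read 6.98, 7.66, 7.09, 7.44 and 7.36 in CKO-labelled arrays. It lay between 7.05 and 7.06 in double heterozygous arrays and between 7.07 and 7.18 in control arrays, inside the range of the CKO-labelled arrays (log2 fold change 0.19 against control arrays, 95% interval -0.10 to 0.49). Hif1an, the asparaginyl hydroxylase, lay between 7.55 and 7.92 in CKO-labelled, 7.48 and 7.73 in double heterozygous and 7.57 and 7.76 in control arrays. Its log2 fold change against control arrays was 0.07 (95% interval -0.16 to 0.30), with a negative sign without normalisation (-0.07) and after median centring (-0.08).

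**Figure D2:**
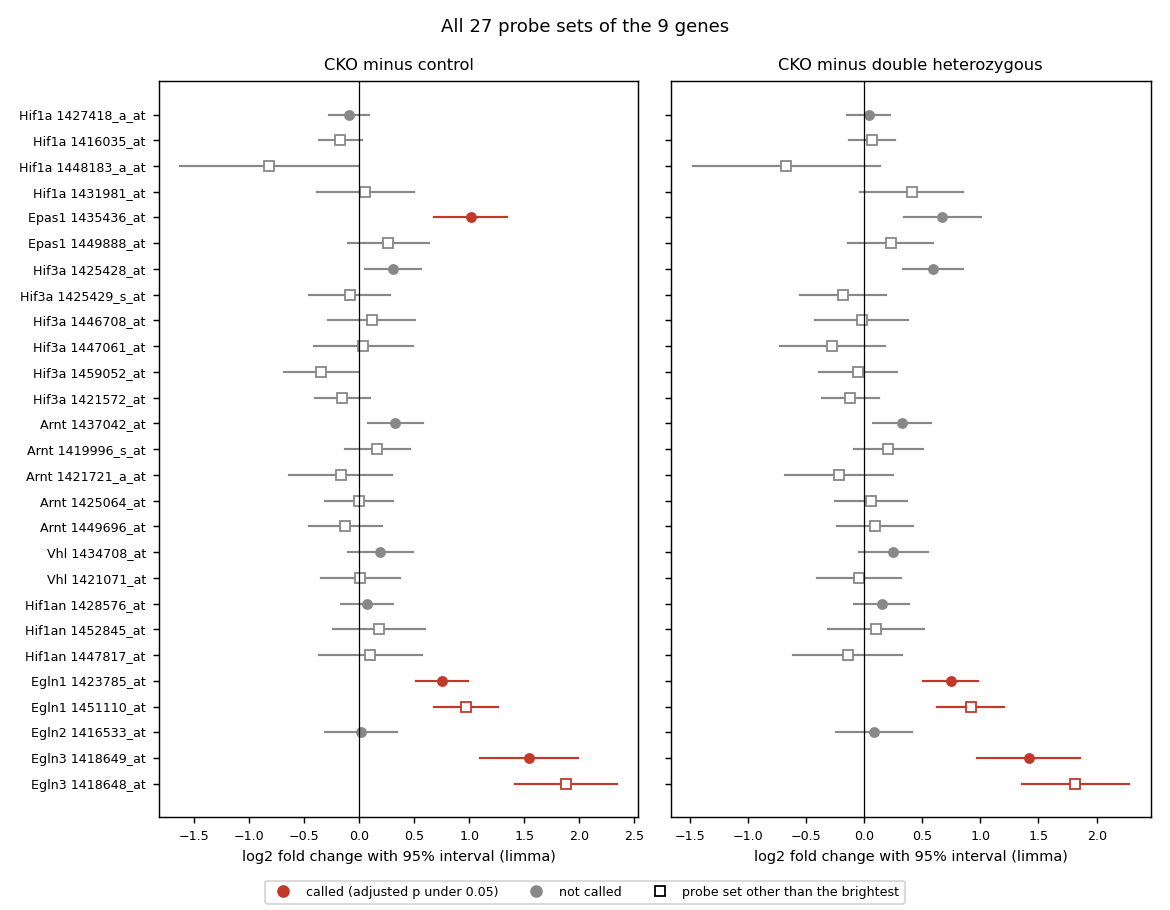
Log2 fold change of each of the 27 probe sets with its 95% interval from the limma fit (unadjusted), CKO minus control on the left and CKO minus double heterozygous on the right. Filled circles are the brightest probe set of each gene, open squares the others, and red marks called probe sets, which are those of Egln1 and Egln3 in both panels and 1 of Epas1 on the left.

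In CKO-labelled against double heterozygous arrays, which differ in the number of floxed Gata4 alleles and share the Nkx2-5 cre allele, Egln1 and Egln3 rose and the other 7 genes were not called. All 9 genes had higher means, and 2 of 9 were called, where 0.407% of all genes were called higher and 0.11% lower in this comparison. The arrays did not overlap for 4 of the 9 genes (Egln1, Egln3, Epas1 and Hif3a), against 9.1% of all genes. This comparison shares its CKO-labelled arrays with the one against control arrays. It depended on single arrays: 0 genes were called without double heterozygous replicate 1 (Egln3 1.34 and Egln1 0.71, both with adjusted p of limma 0.0961). Without double heterozygous replicate 2 there was 1, as Egln1 was lost at 0.73, and 3 were called without CKO replicate 1. Without CKO replicate 3 there were 4, with Epas1 and Hif3a added, as there were without CKO replicates 2 and 3 together.

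Between double heterozygous and control arrays 0 of the 9 genes were called by limma, as were 0 of all 45037 probe sets (0%), with an unadjusted p under 0.05 for 1435 probe sets, 1 of them among the 27 of these genes, and for 0 of the 9 brightest. After normalisation the array ranges did not overlap for 4 of the 9 genes, Epas1 (higher) and Hif1a, Hif3a and Vhl (lower), against 10.9% of all genes. Egln1 differed by 0.00 (95% interval -0.26 to 0.27) and Egln3 by 0.13 (95% interval -0.37 to 0.62). In an F-test over the 3 groups, which corresponds to the one-way design of the series, both probe sets of Egln1 (adjusted p of limma 0.00192 and 0.00156), both of Egln3 (0.00123 and 0.000288) and the brightest of Epas1 (0.00817) were called, where 0.961% of all probe sets were.

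Averaged by role, the inducible hydroxylases lay further above the control mean than the HIF subunits in each CKO-labelled array, but this did not hold gene by gene, since the subunit Epas1 exceeded Egln1 in 4 of 5 arrays. The mean log2 difference of Egln1 and Egln3 from the control mean was 0.84, 1.22, 0.77, 1.48 and 1.42 in CKO-labelled arrays 1 to 5. For the 4 subunit genes Hif1a, Epas1, Hif3a and Arnt it was 0.24, 0.38, 0.29, 0.57 and 0.47 in the same arrays. The subtraction of the second from the first had a mean and SD of 0.76 ± 0.20 over the 5 CKO-labelled, 0.08 ± 0.13 over the 3 double heterozygous and 0 ± 0.16 over the 3 control arrays. It ranged from 0.48 to 0.94 in CKO-labelled, from -0.07 to 0.17 in double heterozygous and from -0.15 to 0.17 in control arrays. No test was made of this difference, because the genes were grouped with earlier results of these data known. Most of the rise of the subunits was that of Epas1, whose difference was 0.89, 1.01, 0.54, 1.31 and 1.32 in the CKO-labelled arrays, against 0.49, 0.87, 0.55, 0.87 and 0.97 for Egln1. The difference of Hif1a was -0.15, -0.30, -0.00, 0.13 and -0.14. Vhl, Hif1an and Egln2 together averaged 0.09 ± 0.17 in CKO-labelled arrays, -0.07 ± 0.080 in double heterozygous and 0 ± 0.022 in control arrays.

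**Figure D3:**
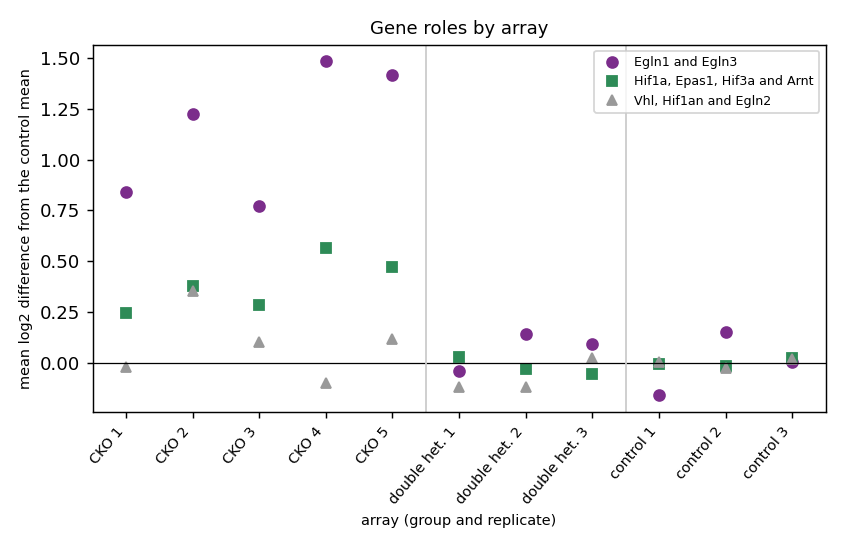
Mean log2 difference from the control mean for the inducible hydroxylases (circles), the HIF subunits (squares) and the other regulators (triangles), by array. In the CKO-labelled arrays the circles lie between 0.77 and 1.48 and the squares between 0.24 and 0.57, while in the 6 other arrays all of them lie between -0.16 and 0.15.

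Across the 11 arrays Egln3 and Egln1 varied together (Pearson r 0.97, and 0.82 after subtraction of the group means), and Egln3 also with Epas1 (0.95 and 0.81), whereas Egln3 with Hif1a gave -0.06 and 0.19. These correlations are over 11 arrays in 3 groups that share the normalisation, and are given as descriptions. Among 10738 genes with signal above the median, those most like Egln3 were Bnip3, a mitophagy receptor (0.99), Stc1, a secreted glycoprotein (0.99), P4ha2 and P4ha1, catalytic subunits of collagen prolyl hydroxylase (both 0.98). Most like Egln1 were Plod2, a collagen lysyl hydroxylase (0.99), P4ha1 (0.98), Pgm1, a phosphoglucomutase (0.98), and Gng11, a G protein gamma subunit (0.98). Epas1 was most like Proser2 (0.98), Pdk1, a kinase that inhibits pyruvate dehydrogenase (0.97), Sox7, an endothelial transcription factor (0.96), and Slc35d3 (0.96). Hif1a was most like Eif4g2, a translation initiation factor (0.87), Pdgfra (0.87), Tbc1d23 (0.85) and U2surp (0.85). None of these matches of Hif1a was called between CKO-labelled and control arrays. As the highest of 10738 correlations over 11 arrays, values of this size can come from the selection alone. After subtraction of the group means the first match of each gene had an r of 0.92 for Egln3, 0.91 for Egln1, 0.90 for Epas1 and 0.94 for Hif1a.

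Many described HIF target genes rose beside Egln1 and Egln3. Of 53 listed genes 47 were measured, 44 had higher means in CKO-labelled than in control arrays, 25 were called higher and 0 lower, where 1.2% of all genes were called higher. Their median log2 fold change was 0.64, beside -0.02 over all genes. The list was chosen with earlier results of these data known, and no test of it as a set was made. The 6 with the smallest p were Igfbp3, which binds insulin-like growth factors (log2 fold change 2.16), Plod2 (1.10), Bnip3 (0.79), the lipoprotein receptor gene Vldlr (1.65), Ddit4, an inhibitor of mTORC1 (1.76), and P4ha2 (1.04). All 6 were also called against double heterozygous arrays, with log2 fold changes between 0.74 and 2.05. Of the 47 targets 17 were called higher in that comparison and 0 lower, where 0.407% of all genes were called higher. In double heterozygous against control arrays the median was 0.01, with 24 higher and 23 lower means and 0 calls. Among targets without a call against control arrays, picked here with their values in view, were the glycolytic genes Pgk1 (0.14), Ldha (0.07) and Aldoa (0.15). Other glycolytic genes of the list were called higher, namely Hk2 (0.75), Pfkp (0.59), Pfkl (0.51) and Aldoc (0.76), as was the glucose transporter gene Slc2a1 (0.36), likewise picked with values in view. Control means were 12.39 for Pgk1, 12.70 for Ldha and 12.20 for Aldoa. They were 7.20 to 10.21 for Hk2, Pfkp, Pfkl and Aldoc, and 12.05 for Slc2a1. The part of brightness in these calls was not tested.

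By array, the mean log2 difference of the 47 targets from the control mean was 0.47, 0.60, 0.34, 0.82 and 0.74 in CKO-labelled arrays 1 to 5, between -0.01 and 0.05 in double heterozygous arrays and between -0.06 and 0.07 in control arrays. CKO replicates 4 and 5 were the highest and CKO replicate 3 the lowest, for the targets as for Egln3 and Epas1. The count of called targets depended on single arrays: against control arrays it was 12, 15 and 11 without control replicates 1, 2 and 3 and 15 without CKO replicate 5. Against double heterozygous arrays it was 3, 6 and 9 without double heterozygous replicates 1, 2 and 3, 26 without CKO replicate 3 and 11 without CKO replicate 5.

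**Figure D4:**
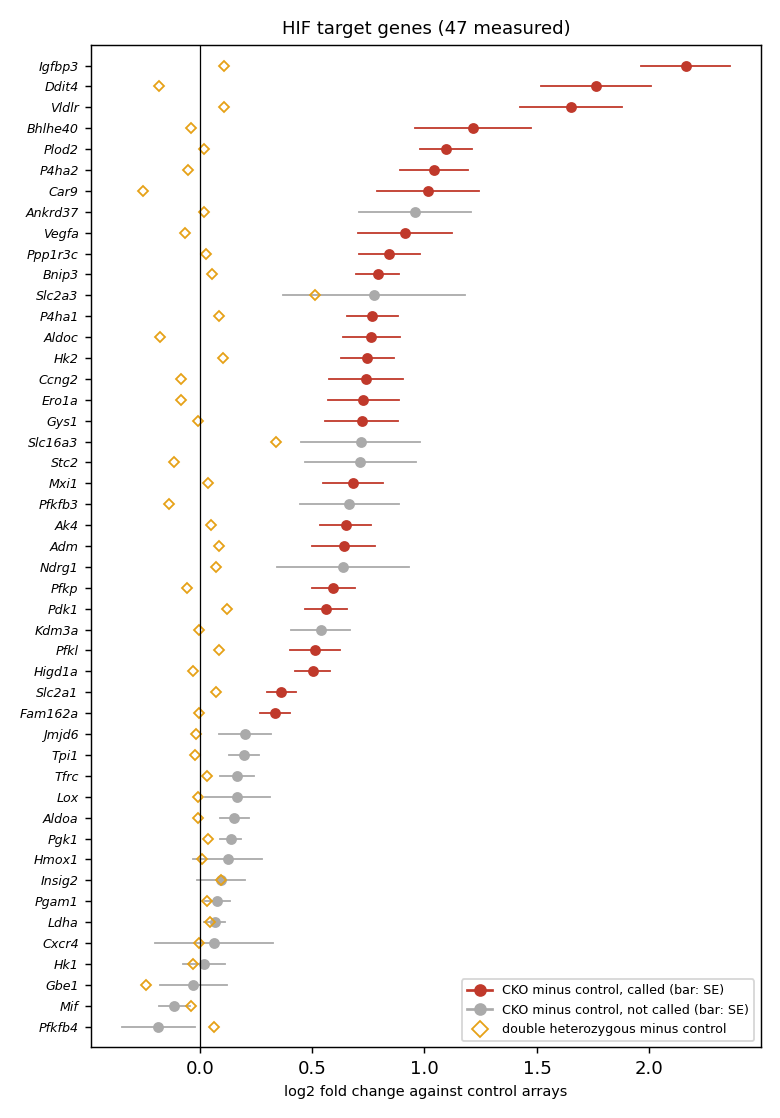
Log2 fold change of the 47 measured HIF target genes in CKO-labelled against control arrays (circles with SE, red where called) and in double heterozygous against control arrays (open diamonds). The circles run from -0.18 (Pfkfb4) to 2.16 (Igfbp3), with 44 above 0, and the diamonds scatter on both sides of 0.

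Outside the member genes, the listed genes whose products bind HIF or act on its turnover had no calls. Among them was Cited2 (0.11), a cofactor that is itself known as a HIF target, picked with its value in view. Of 22 measured partners and turnover factors of HIF, 8 had higher and 14 lower means in CKO-labelled than in control arrays, and 0 were called by limma. The 6 with the smallest p were Ddb1, a ubiquitin ligase adaptor (log2 fold change 0.24, adjusted p of limma 0.133), the deacetylase Sirt1 (-0.28), Cited1, a transcriptional cofactor (0.35), Rbx1, the RING subunit of cullin ligases (0.31), Cul2, the cullin of the VHL complex (-0.12), and the coactivator Ep300 (0.14). The Rbx1 probe set was dim, with means of 5.32 in CKO-labelled and 5.01 in control arrays, where the median of all probe sets was 5.32. The median log2 fold change of the 22 genes was -0.03. Against double heterozygous arrays and between double heterozygous and control arrays 0 were called too. Of 19 other 2-oxoglutarate dioxygenases, relatives in mechanism of the EGLN enzymes that act on histones, DNA or collagen, 14 had higher means and 2 were called higher, where 1.2% of all genes were. These were Kdm5b, a histone H3 lysine demethylase (log2 fold change 0.74, SE 0.13, adjusted p = 0.0124), and P3h2, a collagen prolyl 3-hydroxylase (0.65, SE 0.15, adjusted p = 0.0403). Tet1 (0.54), Kdm2a (0.46), Kdm6b (0.60) and Plod1 (0.30) were not called. In this list 0 genes were called in the other 2 comparisons. It left out the relatives counted among the HIF targets. Of those, P4ha1 (0.77), P4ha2 (1.04) and Plod2 (1.10) were called higher against control arrays, while Kdm3a (0.54) and Jmjd6 (0.20) were not called.

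Of 6 lists of cell type markers, the endothelial, proepicardial and epithelial ones held more than 1 called gene. Over all genes, 1.2% were called higher and 0.863% lower in CKO-labelled than in control arrays. Cardiomyocyte markers (mean log2 values 9.87 to 13.07) had list means between -0.03 and 0.11 in CKO-labelled, -0.04 and 0.02 in double heterozygous and -0.01 and 0.02 in control arrays. Of 12 members Myh7 (0.27) was called higher, and Tnni1 (-0.24) was not called. Most of these markers lay near the top of the scale, where quantile normalisation gives all arrays the same values. Changes of this list may thus be understated, and its narrow range does not show an unchanged content of cardiomyocytes. Endothelial and endocardial markers, the cell type in which Epas1 is best known, had higher means for 11 of 12 members. Their list mean was 0.20 to 0.40 in CKO-labelled arrays, -0.02 to 0.09 in double heterozygous arrays and -0.07 to 0.05 in control arrays. Flt1 (0.98), Kdr (0.68) and Cdh5 (0.63) were called higher and Tek (-0.65) lower, of which Kdr and Cdh5 were picked with their values in view. Npr3 (0.06) and Nfatc1 (0.005), picked likewise, hardly differed. The median log2 fold change of the list was 0.33, beside 1.01 for Epas1 and 0.98 for Flt1. Against double heterozygous arrays 10 of 12 had higher means, and only Kdr was called, where 0.407% of all genes were called higher. The part of endothelial content in the Epas1 value was not tested.

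Erythroid markers overlapped between groups (-0.16 to 0.52 in CKO-labelled, -0.12 to 0.18 in double heterozygous and -0.21 to 0.15 in control arrays), with 0 of 11 called by limma, Alas2 at 0.52 and Slc4a1 at 0.46. Proepicardial and mesothelial markers had lower means for 7 of 8 members in CKO-labelled and 8 of 8 in double heterozygous arrays than in control arrays, with list means of -1.23 to -0.26 in CKO-labelled and -0.84 to -0.36 in double heterozygous arrays, against -0.07 to 0.09 in control arrays. Of these 8 markers 3 were called lower in CKO-labelled than in control arrays, where 0.863% of all genes were, namely Lrrn4 (-1.20), Upk1b (-0.997) and Tcf21 (-1.31), the last picked with its value in view, and 0 of 8 were called by limma between double heterozygous and control arrays. Wt1, a marker of the list, differed by 0.23 in CKO-labelled from control arrays and was not called. Endoderm and epithelial markers had list means of 0.22 to 0.59 in CKO-labelled, -0.13 to 0.18 in double heterozygous and -0.04 to 0.04 in control arrays. In that list Krt19 (1.59), Krt18 (0.85), Krt8 (0.71) and Sox17 (0.92) were called higher, where 1.2% of all genes were. Epcam, Cdh1, Foxa1, Foxa2, Afp and Ttr were not called. Of the 10 markers 4 were below the median brightness, and 2 had a deposited value of 0 in at least 1 array. Of 7 neural crest and mesenchyme markers 0 were called, with list means of -0.31 to 0.32 in CKO-labelled, -0.25 to 0.21 in double heterozygous and -0.06 to 0.04 in control arrays. Against control arrays 3 had higher and 4 lower means in CKO-labelled arrays. Their log2 fold changes ran from -0.64 (Twist1) to 0.83, with Pdgfrb at -0.37. The part of these cell types in the values of the 9 genes was not tested.

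**Figure D5:**
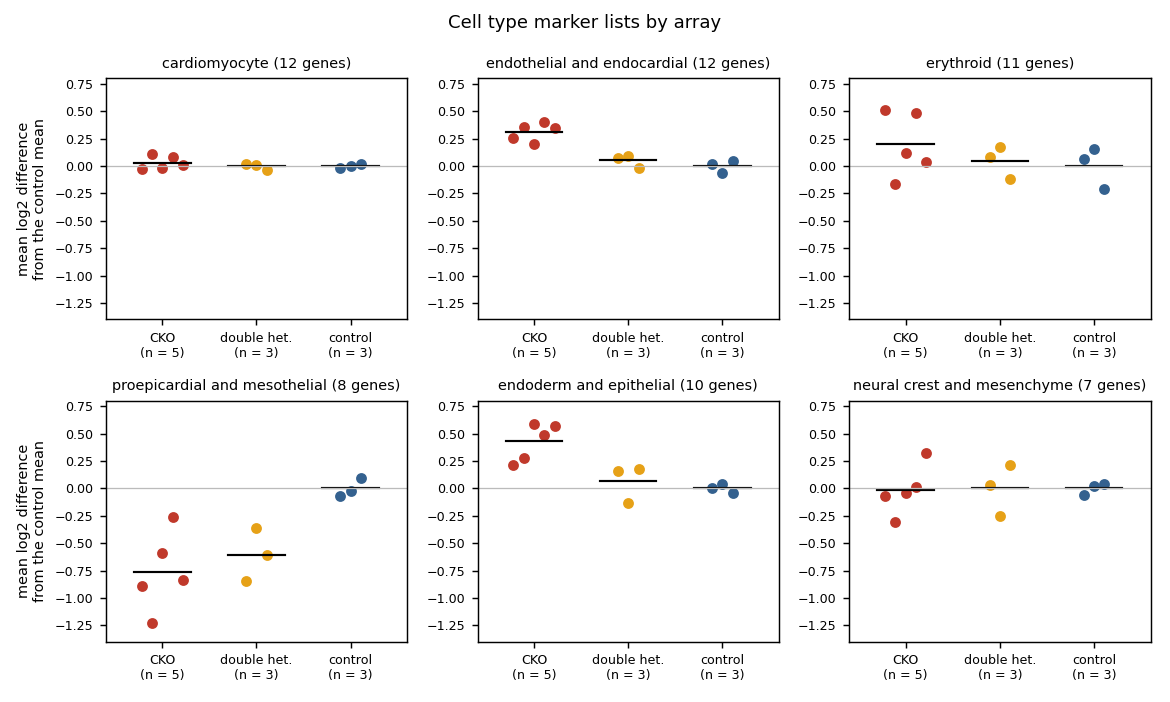
Mean log2 difference from the control mean over the markers of 6 cell types, 1 point per array, with a black line at the group mean. The endothelial list lies between 0.20 and 0.40 in the CKO-labelled arrays, above the 6 other arrays, and the cardiomyocyte list stays between -0.04 and 0.11 in all 11 arrays. Most cardiomyocyte markers lie near the top of the normalised scale, where changes may be understated.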

How the data were processed

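RNA of 11 pooled heart samples (TRIzol extraction, 50 ng amplified by the Ovation method, as the labels' protocols state) was measured on 1 array each. The deposited values are linear intensities, 1 per probe set, summarised with PLIER per the submitters' processing notes. No source states the background correction, the scaling or the PLIER version, and there are no detection calls. The number of arrays limits the precision. Of 45101 probe sets, 64 control probe sets were left out, and log2(intensity + 16) was quantile normalised, since array medians spanned 0.465. A limma 3.58.1 model (R 4.3.3) with 1 coefficient per group was fitted to all 11 arrays, with an intensity trend (15.1 total degrees of freedom), and p-values were two-sided. A gene was read on its brightest single-symbol probe set, passing over _x_at and _s_at sets where another existed. No 2 arrays shared over 0.829% identical values. No per-array column was left unused. The fit was tested on simulated data.

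The members and gene lists were chosen with earlier results of these data known. Named were all 9 members, Gata4, Nkx2-5, the 6 genes of each pathway list and 2 of each marker list with the smallest p in CKO against control arrays, and the 4 genes most correlated with Egln3, Egln1, Hif1a and Epas1. Some further list members were named with their values in view. The lists were HIF target genes, HIF partners and turnover, other 2-oxoglutarate dioxygenases, and cardiomyocyte, endothelial, erythroid, proepicardial, epithelial and neural crest markers. Some listed genes had no probe set with a single symbol, among them Bnip3l, Eno1 and Epo. Other offsets, scalings, filters, variance models, sample sets and omitted arrays were tried.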

Additional observations from a re-analysis of the deposited data

How the results depend on the processing

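Over 23 alternatives, Egln3 stayed called higher against control arrays in all 23 (log2 fold change 1.14 to 1.75), Egln1 in 21 (0.59 to 0.86) and Epas1 in 21 (0.64 to 1.17). On the deposited scale, without further normalisation, 1 member gene was called against control arrays and 0 against double heterozygous arrays, with 4 and 2 HIF targets. Median centring gave 8 targets against control arrays, and 1 member gene and 6 targets against double heterozygous arrays. A linear model without moderation called 1 member gene and 8 targets against control arrays, and 0 and 0 against double heterozygous arrays. Without an intensity trend there were 13 targets against control arrays, and 1 member gene and 7 targets against double heterozygous arrays. With only the groups compared, 16 and 9 targets were called. Array weights gave 4 member genes and 29 targets against double heterozygous arrays, and leaving out CKO replicates 2 and 3 together gave 4 and 28. Fits without single arrays called 3 member genes each against control arrays and 0 to 4 against double heterozygous arrays, and 11 to 28 and 3 to 26 targets. The cause of these changes was not tested. Over all probe sets, CKO-labelled against control arrays had 377 higher and 255 lower calls, 45 and 47 on the deposited scale, and 142 and 220 with median centring; the median over all genes stayed within 0.1 of 0 under each scaling.

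Signs turned for some values that were not called in the reported fit. For CKO-labelled against control arrays, Hif1an was at -0.071 without normalisation and -0.079 after median centring, and Egln2 at -0.13 and -0.14. Egln2 was also at -0.050 with array weights and -0.15 without CKO replicates 2 and 3, and ranged from -0.063 to 0.15 over single arrays left out. Hif3a was at -0.021 as the mean of its probe sets. Against double heterozygous arrays, Hif1a was at -0.099 (deposited scale), -0.15 (median centring), -0.019 (replicate block) and -0.038 (mean of probe sets), and ranged from -0.017 to 0.090 over single arrays left out. There Egln2 was at -0.031, -0.079 and, without CKO replicates 2 and 3, -0.078, Hif1an at -0.0036 after median centring, and Hif3a at -0.0084 as the mean of its probe sets. Between double heterozygous and control arrays, Arnt was at -0.046 (deposited scale), -0.0074 (median centring) and -0.054 (mean of probe sets), and from -0.089 to 0.085 over single arrays left out. In that comparison Egln1 was at -0.0084 (deposited scale) and -0.016 (array weights), and from -0.065 to 0.067 over single arrays left out. Hif1an was at 0.080 as the mean of its probe sets, and Egln2 ranged from -0.15 to 0.016 over single arrays left out.

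Whether the replicate numbers pair arrays of different groups is not stated. Deviations of same-numbered arrays from their group means correlated between -0.06 and 0.15 (9 pairs), against -0.14 to 0.18 for others (30 pairs). These ranges overlap and the pairs are few, so they cannot decide it. A replicate block kept 3 and 2 member genes called, with 17 and 12 targets. No detection calls were available, so 8 of the 27 probe sets, below the median brightness, may carry little signal. Of 27 CKO-labelled sets of 5 values tested for a single outlying array by Dixon's ratio, 0 passed the threshold of 0.71. With 5 values this test can miss a low array where a second is also low. On 1 Hif1a probe set CKO replicate 2 read 6.01 and CKO replicate 5 read 7.38, without being flagged.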
